A study of Mus musculus with 24 samples.

Results

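Mono-cultured pancreatic stellate cells (PSC) served as the control in each of the 2 co-culture models of the study, and their transcriptomes at 72 h were compared directly here. The comparison held 6 of the 24 libraries of the series, chosen by their labels alone: the 3 controls of the inverse model and the 3 controls of the standard model at 72 h. PSC are the resident fibroblast-like cells of the pancreas. The source was pooled pancreata from wild-type C57BL/6J mice, with no transgene or other allele named, and the cells grew on porous culture inserts without the KPC cells, a mouse pancreatic cancer cell line, that were present in the co-cultures. The 24 libraries comprised 8 groups of 3 (standard and inverse model, control and co-culture, 24 h and 72 h). Both control sets were kept in advanced DMEM/F-12 with 10% FBS during the experiment. They were not handled alike before that. Standard controls were seeded in the growth medium with 16% FBS and changed to the experimental medium at time zero, whereas inverse controls were seeded directly in the experimental medium, without a further change described. The RNA amount per library also differed, with 450 ng for the standard and 120 ng for the inverse controls. Model set, medium history and RNA input therefore cannot be told apart in any difference given here. Each group held 3 numbered replicates, which the methods call biological, and p-values measure the spread between them.

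Quiescent PSC store vitamin A and fat in lipid droplets and express part of the adipocyte programme, which is driven by the nuclear receptor PPARG. Culture on plastic activates them: they lose the droplets, divide and build stress fibres with smooth muscle actin (ACTA2), while they secrete collagens and fibronectin. Cytosolic ribosomal protein genes form another coordinated group, because their mRNAs begin with a run of pyrimidines, the 5′ TOP element, through which growth and nutrient signals control their translation and stability.

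The libraries held between 17585922 and 23874494 counted fragments at 72 h, as recovered from the steps of the FPKM values, and 12596 to 13307 genes had an FPKM (fragments per kilobase of transcript, scaled to library size) above 1. Of the 20 stellate cell and fibroblast markers 17 passed the expression filter: COL1A1 lay between 4918 and 8471 FPKM and COL3A1 between 4666 and 14136 FPKM. Of 14 epithelial and ductal markers 4 were at 0 in all 6 libraries, EPCAM and CDH1 among them, while SOX9 and MUC1 passed the filter and the list summed to 7.49 to 14.6 FPKM. The islet hormones INS1, INS2, GCG and SST and the lymphocyte markers CD3E and CD8A were listed at 0 in all 6 libraries, and of 14 acinar markers 9 were at 0, with 1, CELA1, above the expression filter. A listed 0 is weak evidence in this file, since NDUFS3, a respiratory chain gene that every cell uses, was also listed at 0 in all 6. Summed over the 20 macrophage markers the level was 49.2, 1781 and 240.1 FPKM in standard replicates 1, 2 and 3 and 283, 170.2 and 337 FPKM in the inverse replicates, so that standard replicate 2 stood out and the groups overlapped. In bulk RNA a smaller number of such cells and less RNA per cell cannot be told apart. LYZ2, the macrophage lysozyme, was at 29.8, 915 and 126 FPKM in the standard and 152, 93.6 and 172 FPKM in the inverse controls. The female transcript XIST (54.4, 53.8 and 73.04 FPKM in the standard, 83.3, 82.1 and 75.01 FPKM in the inverse controls) and the Y-linked EIF2S3Y (15.3, 22.2 and 16.9 and 20.1, 16.6 and 17.4 FPKM) were both present in every library, and the pooled pancreata came from both sexes.

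One library stood apart before any comparison was made. Standard control replicate 1 correlated with the other 5 libraries at Pearson's r between 0.886 and 0.933 over 13106 genes, whereas the 10 pairs among the others lay between 0.954 and 0.976. It was the library with the most contractile and proliferative transcripts and the fewest adipocyte transcripts. ACTA2 was at 4537, 476 and 895 FPKM in the standard and 763, 1347 and 1137 FPKM in the inverse controls, and MKI67, a marker of dividing cells, at 23.9, 4.27 and 3.84 and 6.07, 9.602 and 5.76 FPKM. The same number at 24 h stood apart in the same way, with 5963 FPKM of ACTA2. The median over genes of the within-group SD was 0.27 on the log2 scale in the standard controls, 0.14 without replicate 1, and 0.17 in the inverse controls. Results are therefore given with and without this library.

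Across all genes, no single gene passed the test between the 2 control sets. A total of 13106 genes had an FPKM over 1 in 3 or more libraries, and 0 (0%) of them passed an adjusted p of 0.05 in limma with an intensity trend on log2(FPKM + 0.5). The lowest adjusted p was 0.111. An unadjusted p under 0.05 was found for 810 genes (6.18%), where 655 would be 5% of the genes tested; 595 of them (4.54%) were higher in the inverse controls and 215 (1.64%) lower. The count of unadjusted p under 0.05 depended on single libraries: it was 1568 without standard replicate 1, 734 to 930 without another standard library and 358 to 510, below 655, without an inverse library. With the voom weights of limma on fragment numbers, again 0 genes passed and 831 had an unadjusted p under 0.05. All differences below are inverse minus standard, and where a single gene is described as higher or lower, only the position of its 3 plus 3 values is meant, since none passed the test. In 1454 genes (11.1%) every inverse value lay above every standard value, and in 412 genes (3.14%) every inverse value lay below. This balance depended on the scaling: when libraries were scaled by the median of their gene ratios, 894 genes lay above and 788 below, so the share of higher genes among those without overlap went from 77.9% to 53.2%. The median log2 difference of all genes was 0.08 as deposited and 0.00 after that scaling. Without standard replicate 1, 3 genes passed the adjusted p: POLD4, with a higher value in the inverse controls, and LIF and CSRNP1, with lower values. Genes without overlap then numbered 2803 higher (21.4%) and 1274 lower (9.72%).

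The gene nearest to the threshold was POLD4, the small accessory subunit of DNA polymerase delta. POLD4 values were 1.52, 1.26 and 1.34 FPKM in the standard and 8.32, 8.69 and 7.503 FPKM in the inverse controls. The groups were far apart and tight, with a log2 difference of 2.21 (SE 0.18, n = 3 per group, limma adjusted p = 0.111). The adjusted p of POLD4 in limma was 0.0430 without standard replicate 1, 0.0235 without the intensity trend and 0.00737 when each library received its own weight. In the other 15 alternatives in which POLD4 was fitted it lay between 0.103 and 1.000, with 0.568 by voom and 0.970 to 1.000 when an inverse library was left out. At 24 h the values of POLD4 overlapped, at 2.22, 1.69 and 13.8 FPKM in the standard and 2.83, 1.95 and 1.43 FPKM in the inverse controls, with 1 standard library above all others. The gene lies on chromosome 19, 4231899 to 4233634, plus strand (GRCm38), overlaps no other annotated gene and has 1164 annotated exon bases, over which 26.9 to 39.7 fragments were estimated in the standard and 178 to 224 in the inverse controls.

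Of the 10 genes with the largest difference in the upward direction, PLIN1, ACSL1, ADIG, LGALS12 and FFAR2 are known from fat cells. PLIN1, the coat protein of lipid droplets, was at 10.8, 118 and 110.5 FPKM in the standard and 343, 204 and 298 FPKM in the inverse controls (log2 difference 2.38, SE 0.89, limma adjusted p = 0.800). ACSL1, which activates long-chain fatty acids with coenzyme A, was at 17.2, 109.9 and 129.7 against 357, 219.6 and 341 FPKM (log2 difference 2.24, SE 0.75). In both genes standard replicate 1 was far below its group mates, and replicates 2 and 3 were still below every inverse library. ADIG, a fat cell membrane protein, was at 0.0931, 6.01 and 7.81 against 20.8, 10.3 and 14.1 FPKM. LGALS12, a galectin of lipid droplets, was at 0.0515, 1.92 and 1.401 against 5.68, 4.3002 and 7.203 FPKM. FFAR2, a receptor for short-chain fatty acids, followed with 0.146, 2.89 and 3.88 against 10.97, 5.38 and 11.9 FPKM. AGT, the precursor of angiotensin, was at 1.73, 9.42 and 9.82 against 31.8, 21.2 and 21.6 FPKM (log2 difference 2.03, SE 0.60). CITED4, a transcriptional coregulator, was at 0, 4.32 and 2.41 against 11.7, 6.37 and 6.54 FPKM. LCN2, a siderophore-binding lipocalin, was listed at 0 in standard replicate 1 and at 12.3 and 9.32 FPKM in replicates 2 and 3, against 27.96, 13.4 and 30.97 FPKM. Without standard replicate 1 the log2 differences of PLIN1, ACSL1, ADIG, LGALS12, FFAR2, AGT, CITED4 and LCN2 were between 1.03 and 1.51, and 0 of them passed.

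Of the 10 genes with the largest difference in the downward direction, PTGS2, CCL7, ISG15, USP18 and NR4A3 belong to inflammatory, interferon or early responses. PTGS2, the inducible cyclooxygenase of prostaglandin synthesis, was at 14.8, 25.7 and 29.1 FPKM in the standard and 14.5, 12.9 and 2.699 FPKM in the inverse controls, with the nearest libraries of the 2 groups almost level. CCL7, a monocyte chemoattractant, was at 86.7, 160.3 and 91.9 against 64.9, 41.7 and 30.96 FPKM (log2 difference -1.30, SE 0.34, limma adjusted p = 0.800). NR4A3, an orphan nuclear receptor induced early after stimulation, was at 2.57, 5.19 and 7.55 against 1.68, 1.88 and 1.67 FPKM, the inverse libraries all but level. RND1, a small GTPase, was at 25.6, 20.2 and 24.3 against 11.8, 10.8 and 12.3 FPKM (log2 difference -0.97, SE 0.14, limma adjusted p = 0.717). The values of RND1 were tight in both groups and far from overlap. The interferon-induced ubiquitin-like modifier ISG15 was at 11.8, 18.5 and 39.1 against 9.61, 4.59 and 9.97 FPKM. Its protease USP18 was at 4.45, 7.64 and 15.4 against 3.66, 3.21 and 4.21 FPKM. LSM5, a subunit of the U6 snRNA-binding ring, was at 6.699, 9.46 and 3.79 against 2.06, 0.247 and 1.09 FPKM, low in every library. TMEM134 was at 6.57, 5.08 and 6.65 against 1.86, 2.85 and 3.901 FPKM. RPS27A, which encodes ubiquitin fused to a small-subunit ribosomal protein, was at 254, 86.4 and 69.6 against 62.5, 53.6 and 54.97 FPKM, with standard replicate 1 far above the rest. TMEM134 is annotated here as a processed transcript, and ribosomal protein genes such as RPS27A share sequence with processed pseudogenes. The values of TMEM134 and RPS27A are uncertain to that extent. With standard replicate 1 left out, the log2 differences of PTGS2, CCL7, NR4A3, RND1, ISG15, USP18, LSM5, TMEM134 and RPS27A were between -2.17 and -0.44, and 0 of them passed.

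**Figure D1:**
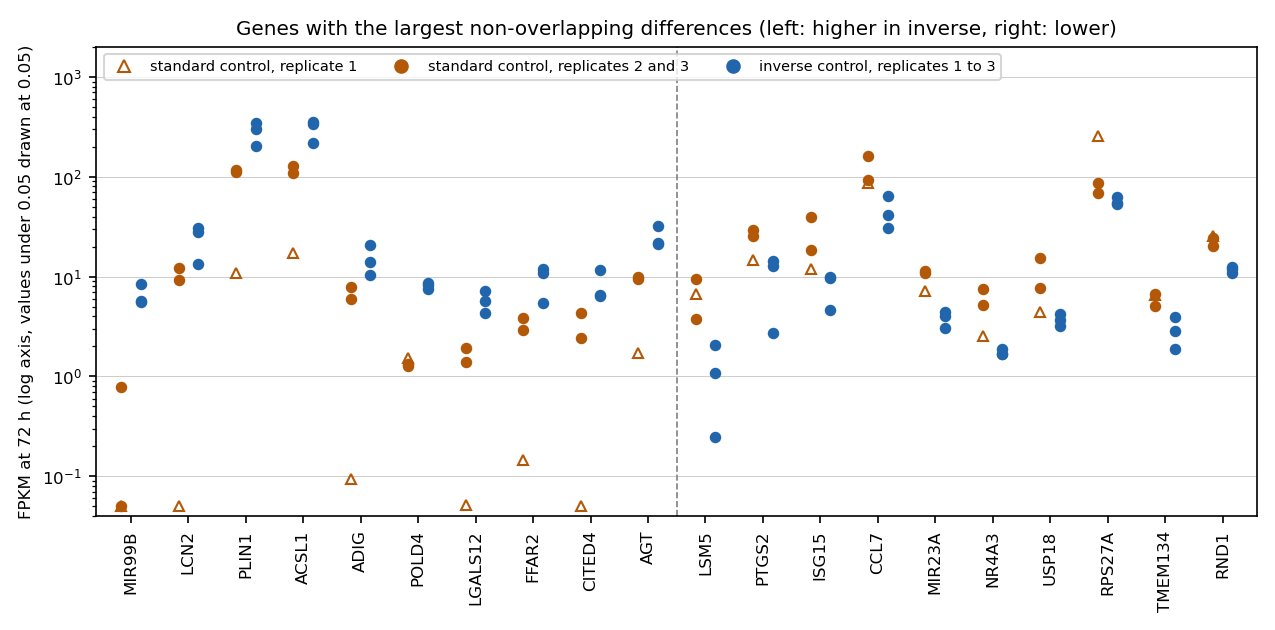
FPKM at 72 h (log axis) of the 10 genes highest and the 10 genes lowest in the inverse controls by the naming rule, 1 point per library. In each gene the 3 inverse values do not overlap the 3 standard values, and in the lipid genes on the left standard replicate 1 lies far below replicates 2 and 3.

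A microRNA locus was among the 10 genes in either direction, and the mature sequences are given because the values must not be read as their levels. At the MIR99B locus (chromosome 17, 17830188 to 17830257, plus strand, GRCm38, within SPACA6) 0, 1 and 0 fragments were estimated in the standard and 9, 7 and 14 in the inverse controls, or 0, 0.779 and 0 and 5.56, 5.69 and 8.38 FPKM over 70 bases. At the MIR23A locus (chromosome 8, 84208518 to 84208592, plus strand) the estimates were 12, 15 and 16 against 7, 4 and 8 fragments, or 7.16, 10.9 and 11.3 and 4.04, 3.03 and 4.47 FPKM. At 24 h the groups overlapped at both loci, with 1.76, 4.55 and 2.23 FPKM in the standard and 8.37, 12.4 and 3.93 FPKM in the inverse controls for MIR23A. For MIR99B they were 0, 4.07 and 2.38 and 0.897, 1.15 and 0 FPKM, and at both loci the order of the means was the opposite of that at 72 h. Sequenced fragments are longer than mature microRNAs, so the reads came from longer transcripts across these loci, and with so few fragments counting error alone is large. The mature strands in RefSeq (GRCm38.p6), with the seed at bases 2 to 8 in capitals, share no seed among the 4:
miR-99b-5p: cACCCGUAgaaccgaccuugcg
miR-99b-3p: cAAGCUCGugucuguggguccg
miR-23a-5p: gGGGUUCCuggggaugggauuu
miR-23a-3p: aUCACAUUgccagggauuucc

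The adipocyte programme was the gene list with the most upward median among the lists with at least 5 tested members. Of its 32 genes 28 were tested and 0 passed the adjusted p; 13 were without overlap higher in the inverse controls and 0 lower, beside 11.1% higher among all genes. The median log2 difference was 1.38, beside 0.08 for all genes. The difference was above zero in 27 of the 28 tested members. The 2 most abundant members did not separate the groups: LPL, the lipoprotein lipase, was at 197, 1636 and 1343 FPKM in the standard and 1596, 1243 and 1608 FPKM in the inverse controls, and MGST1, a microsomal glutathione transferase, at 77.1, 396 and 281 and 434, 261 and 345 FPKM. The secreted adipokine ADIPOQ was at 0.734, 65.6 and 63.999 against 125, 44.3 and 115 FPKM. The fatty acid binding protein FABP4 was at 10.5, 151 and 124 against 311, 124 and 254 FPKM. The complement protease CFD was at 0.549, 45.2 and 47.999 against 70.7, 27.1 and 76.01 FPKM. In these genes replicate 1 was lowest by far, and inverse replicate 2 lay below or level with standard replicates 2 and 3. Members without overlap covered several steps of triglyceride turnover: synthesis (DGAT2 at 16.6, 77.4 and 77.7 against 188, 109.7 and 185 FPKM), release (LIPE, the hormone-sensitive lipase, at 2.82, 23.8 and 24.2 against 57.5, 33.6 and 55.9 FPKM, and PNPLA2 at 15.01, 61.9 and 59.6 against 135, 74.4 and 133 FPKM) and droplet coating (PLIN4 at 3.91, 7.48 and 8.11 against 23.5, 12.2 and 20.9 FPKM). The master regulators differed less. PPARG was at 28.7, 51.2 and 45.2 against 63.1, 44.01 and 66.6 FPKM (log2 difference 0.49, SE 0.26), and CEBPA at 69.4, 172 and 171 against 274, 194 and 263 FPKM (log2 difference 0.92, SE 0.37). Without standard replicate 1 the list median was 0.62 and 13 members lay above without overlap, beside 21.4% of all genes. Without inverse replicate 2, the lowest of its group, 23 members did, beside 2496 (19%) of all genes; this library was chosen after its values were seen. At 24 h the list median was -0.005, and 0 of its members were without overlap.

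**Figure D2:**
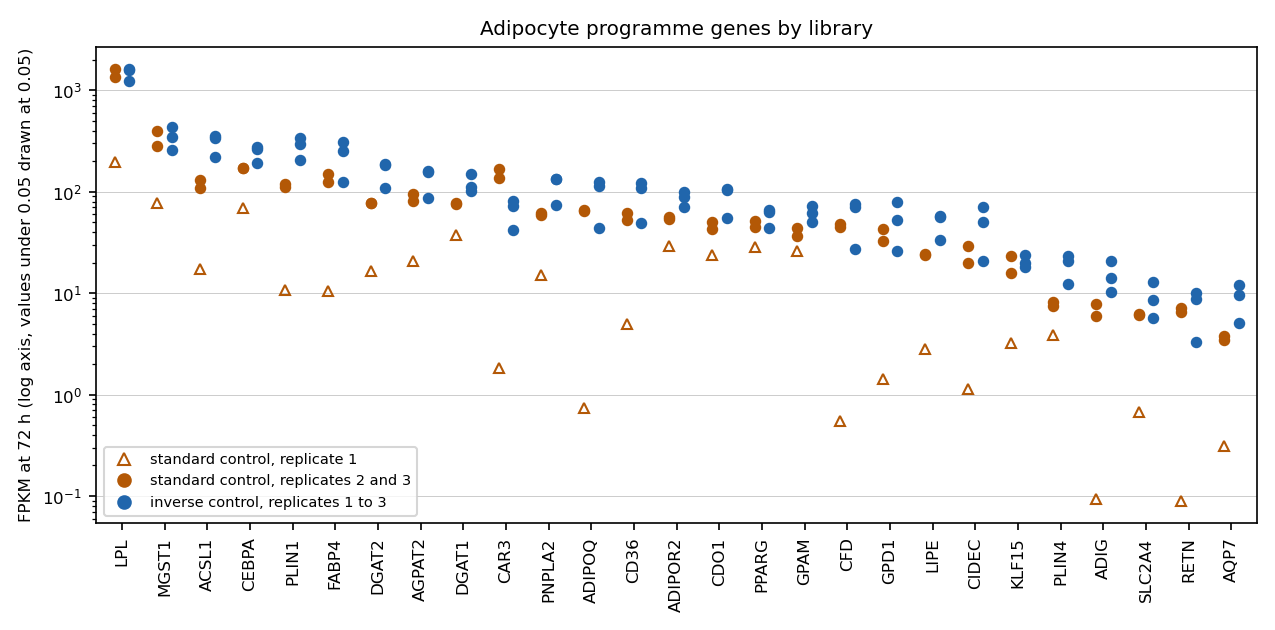
FPKM at 72 h (log axis) of 27 of the 28 tested adipocyte programme genes, ordered by mean, 1 point per library. Standard replicate 1 (open triangles) is the lowest library in every gene drawn, and inverse replicates 1 and 3 are above standard replicates 2 and 3 in most genes.

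The other lipid lists lay much nearer to all genes, of which 11.1% were higher without overlap at a median of 0.08. In fatty acid and triglyceride synthesis 4 of 19 genes were higher without overlap (median 0.26), among them SCD2, a stearoyl-CoA desaturase, at 67.9, 87.5 and 102 against 119, 119.7 and 103 FPKM. The lipogenic transcription factor SREBF1 was at 67.98, 132 and 115 against 196, 149 and 162 FPKM. The most abundant members of that list, ACLY (96.96, 203 and 187 against 187, 182 and 166 FPKM) and SCD1 (29.1, 149 and 238 against 219.8, 130.3 and 233 FPKM), overlapped. In fatty acid oxidation 3 of 19 were higher without overlap (median 0.29), including PPARGC1A, a coactivator of mitochondrial genes, at 0.309, 0.825 and 1.03 against 1.38, 1.35 and 1.599 FPKM. Sterol synthesis held 1 of 25 (median 0.27), vitamin A handling 1 of 12 (median 0.24) and the glucocorticoid and insulin response 2 of 17 (median 0.28), with IRS1, an insulin receptor substrate, at 2.93, 2.41 and 3.03 against 4.49, 4.97 and 4.29 FPKM. The same 5 medians without standard replicate 1 were 0.04, 0.08, -0.06, -0.19 and -0.09, so the last 3 changed sign.

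Cytosolic ribosomal protein genes formed the list with the lowest median, and that median lay below zero with and without standard replicate 1. All 77 genes of the list were tested and 0 passed the adjusted p. In 61 of them every inverse value lay below every standard value, against 3.14% of all genes, in 0 above, and 42 lower genes had an unadjusted p under 0.05, against 1.64% of all genes. The differences were small and even: the median was -0.37 on the log2 scale, and 76 genes were below zero and 1 above. The 2 most abundant members were RPLP1 at 1796, 1466 and 1362 FPKM in the standard and 1214, 958 and 1104 FPKM in the inverse controls, and RPLP0 at 1623, 1357 and 1384 and 1136, 1183 and 1170.3 FPKM; both build the acidic stalk of the large subunit. RPS20 of the small subunit had the smallest p of the list, at 246, 207 and 191 against 157, 139.5 and 157 FPKM (log2 difference -0.50, SE 0.14, limma adjusted p = 0.800), and RPL26 of the large subunit was at 408, 395 and 361 against 291, 238 and 306 FPKM (log2 difference -0.48, SE 0.14). As a share of all FPKM, the list took 5.66, 4.88 and 4.61% in the standard and 4.05, 3.71 and 4.13% in the inverse controls at 72 h. At 24 h the shares were 6.696, 6.43 and 5.49% and 6.34, 6.49 and 6.11%, and the groups overlapped. When standard replicate 1 was left out, 61 genes lay below (background 9.72%) with a median of -0.30. Under scaling by gene ratios, 68 genes lay below (788 of all 13106) with a median of -0.45. Members carry uncertainty from processed pseudogenes with near-identical sequence.

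**Figure D3:**
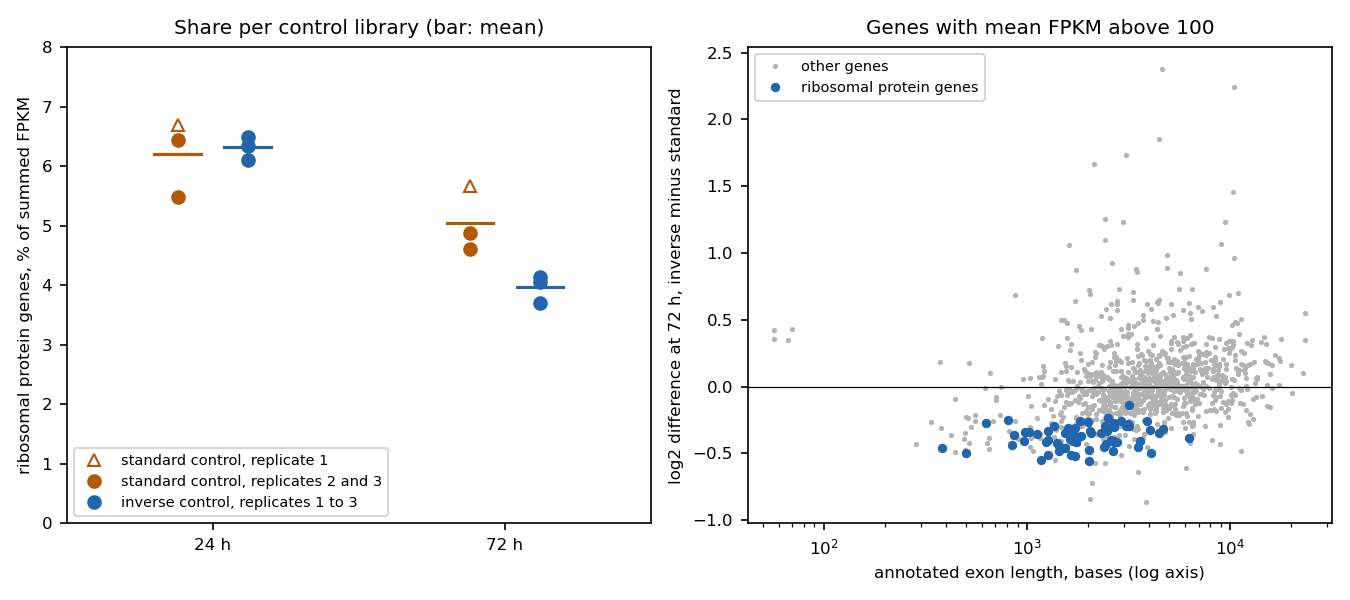
Left, share of summed FPKM taken by the 77 ribosomal protein genes in each of the 12 control libraries at 24 h and 72 h, with group means as bars: at 72 h the inverse libraries lie at 3.71% to 4.13% and the standard libraries at 4.61% to 5.66%. Right, log2 difference at 72 h against annotated exon length (log axis) for genes with a mean FPKM above 100, where listed ribosomal protein genes sit below zero. Short genes drawn as other genes tend to as well. They include FAU, which encodes a ribosomal protein, ribosomal protein pseudogenes, and genes of other kinds such as LGALS1 and B2M.

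Transcript length moved with these values and is given beside them. The median annotated exon length was 1781 bases for the ribosomal protein genes and 4174 bases for all tested genes. Genes outside the ribosomal protein list with a mean FPKM above 100 were also split by length. With at most 1000 exon bases, 14 of 39 lay below without overlap (median -0.26), and with more than 5000 bases 2 of 351 (median 0.07). The short group still held FAU, which encodes a ribosomal protein, and ribosomal protein pseudogenes such as RPS16-PS2, RPS12-PS3 and RPL14-PS1. Its values are therefore not wholly separate from those of the ribosomal protein genes. It also held genes of other kinds, some below zero, such as LGALS1 (log2 difference -0.39) and B2M (-0.36), and some above, such as G0S2 (0.69). Over all tested genes longer than 5000 bases, 825 of 5227 lay above without overlap, or 15.8%, beside 11.1% of genes of any length. Below without overlap lay 10.2% of all tested genes with at most 1000 bases and 0.995% of those longer than 5000. Of 11 RNA species that poly(A) selection captures poorly or that stay in the nucleus, 8 were above zero and 3 below (median 0.35). Among them 4 were higher without overlap, such as NEAT1, the scaffold of paraspeckles, at 36.5, 62.1 and 42.1 against 109, 82.98 and 71.4 FPKM. MALAT1, the most abundant of the list, overlapped at 616, 769 and 793 against 1310.2, 1285 and 765 FPKM. The next most abundant, HIST1H1C, had a log2 difference of -0.12. The part of length or RNA quality in the ribosomal protein values was not tested.

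The start sites of 4 ribosomal protein genes are shown because the pyrimidine run at the start is known as a shared feature of this group. A stretch of at least 6 C and T bases, read from a C within 5 bases of the annotated start, was found in 25 of 57 ribosomal protein genes with a RefSeq promoter (GRCm38.p6), against 11.9% of 27025 genes. This search was added after the values were seen, and it depends on how exactly each start is annotated. Genes of a single chromosome were left out when the lines below were chosen. Each line spans 10 bases before and 20 bases from the annotated start, 5′ to 3′ on the gene's strand, with the stretch in capitals from that C on (other C or T bases may precede it, as in RPL35), for the members without overlap and with the smallest p that hold one:
RPL35: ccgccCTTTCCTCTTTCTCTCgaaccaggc
RPS18: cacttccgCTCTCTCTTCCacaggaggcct
RPS24: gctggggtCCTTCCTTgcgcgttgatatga
RPS15A: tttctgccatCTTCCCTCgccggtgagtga

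They lie at chr2:39005112-39005141 (minus strand, RPL35), chr17:33955646-33955675 (minus strand, RPS18), chr14:24490668-24490697 (plus strand, RPS24), chr7:118116128-118116157 (minus strand, RPS15A). RPL35 values were 254, 232 and 201 FPKM in the standard and 176, 160.2 and 176 FPKM in the inverse controls. RPS18 values were 671, 576 and 527 FPKM in the standard and 449, 411 and 451 FPKM in the inverse controls. In RPL35 and RPS18 the lowest standard library was clearly above the highest inverse library. RPS24 values were 364, 314 and 286 FPKM in the standard and 257, 227 and 251 FPKM in the inverse controls. RPS15A values were 122, 108 and 99.9 FPKM in the standard and 88.5, 83.98 and 90.3 FPKM in the inverse controls. Promoter motifs were also counted for 4 other lists on both strands of the 300 bases around the start. The CArG box was in 5 of 20 contractile gene promoters (1.81% of all), TCACNCCAC in 1 of 17 sterol gene promoters (1.44%), TGATGNAA in 10 of 28 promoters of the ATF4 list (4.51%), and the PPAR response element in 0 of 22 adipocyte promoters (0.0481%).

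Genes of the activated, contractile state did not separate the control sets. Of 23 tested smooth muscle contractile genes 1 was lower without overlap, DES, the muscle intermediate filament desmin, at 66.3, 37.8 and 55.4 FPKM in the standard and 26.2, 34.2 and 35.7 FPKM in the inverse controls, and 0 were higher. The list median was -0.22 and changed sign to 0.41 without standard replicate 1. For ACTA2 the log2 difference was -0.24 (95% interval -2.14 to 1.65, limma adjusted p = 0.971), and 0.69 without that library. MYL9, a regulatory myosin light chain and the next most abundant member, was at 2531, 551 and 835 against 577, 972 and 934 FPKM. CNN1 and MYH11, contractile genes that also mark pericytes and vascular smooth muscle, were at 1076, 75.3 and 176 and 473, 27.2 and 59.4 FPKM in the standard controls, with the inverse controls between 186 and 314 FPKM for CNN1 and between 65.4 and 168 FPKM for MYH11. Standard replicate 1 held the highest value and replicate 2 the lowest in both genes, so the inverse libraries lay inside the range of the standard ones.

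The matrix genes that the study tested in its co-cultures overlapped between the control sets. VCAN, the large chondroitin sulphate proteoglycan versican, was at 38.5, 28.7 and 21.5 FPKM in the standard and 46.1, 42.9 and 22.9 FPKM in the inverse controls (log2 difference 0.31, 95% interval -0.46 to 1.08). CHST11, which sulphates chondroitin, was at 6.25, 7.78 and 8.14 against 9.07, 8.13 and 6.55 FPKM (0.09, -0.36 to 0.53). SDC4, a heparan sulphate proteoglycan of the cell surface, was at 128, 205 and 191 against 149, 123 and 113 FPKM (-0.42, -0.93 to 0.08). FN1, fibronectin, was at 2947, 3099 and 2966 against 3248, 3618 and 2992 FPKM (0.13, -0.40 to 0.65), with inverse replicate 3 inside the standard range. TIMP1, an inhibitor of matrix metalloproteinases, was at 180.1, 328 and 197 against 251, 156 and 142 FPKM (-0.35, -1.08 to 0.38). For VCAN, CHST11, SDC4, FN1 and TIMP1 the limma adjusted p lay between 0.817 and 0.954. An interval that spans zero does not show equal levels. Collagens had a median of 0.01 over 23 genes with 1 higher without overlap, COL5A3 at 33.3, 49.5 and 44.7 against 79.6, 67.04 and 65.98 FPKM. Collagen processing enzymes had 1 higher of 23, matrix glycoproteins 2 higher and 1 lower of 39, integrins 1 and 1 of 14, and proteoglycan genes and matrix proteases 0 of 27 and 0 of 25. SPARC, an abundant collagen-binding glycoprotein, was the 1 lower matrix gene, at 7137, 7552 and 7225 against 6066, 6467 and 5861 FPKM. ITGA6, a laminin-binding integrin subunit, was at 3.61, 9.12 and 5.14 against 13.7, 11.99 and 16.9 FPKM.

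The lists of interferon, chemokine and early response genes had medians below zero, further below without standard replicate 1. Of all genes, 3.14% were lower without overlap, and 9.72% without standard replicate 1. Of 29 interferon-stimulated genes 3 were lower without overlap (ISG15, USP18 and IFI35) and 0 higher, with a median of -0.32. In the absence of standard replicate 1, 26 were lower (background 9.72%) and the median was -0.77. BST2, a membrane tether of budding virions, shows the pattern: its values were 38.6, 141 and 106 FPKM in the standard and 47.1, 37.8 and 45.2 FPKM in the inverse controls, so that replicate 1 alone overlapped the inverse libraries. The most abundant member, IFI27, did not follow it, at 210.0, 244 and 188 against 249, 196 and 248 FPKM. Of 21 immediate early genes 4 were lower (IER3, NR4A3, KLF2 and KLF6) and 0 higher. IER3 was at 86.9, 97.8 and 83.1 against 60.3, 47.7 and 51.96 FPKM (log2 difference -0.74, SE 0.13, limma adjusted p = 0.717) and the shear-responsive transcription factor KLF2 at 50.04, 73.1 and 72.7 against 30.98, 42.5 and 38.01 FPKM. FOS (108, 682 and 626 against 595, 461 and 320.2 FPKM) and JUNB (229.6, 1002 and 988 against 868, 583 and 534 FPKM), the most abundant members, overlapped because replicate 1 was lowest of all. The median of the early genes was -0.13, and -0.60 with 14 genes lower when that library was left out. It was 0.01 without standard replicate 2 and 0.06 without standard replicate 3, so its sign rested on these libraries. Chemokines had 1 lower of 19 (CCL7; median -0.28, and -1.14 with 8 lower without replicate 1). CCL2, another monocyte chemoattractant, was at 21.8, 197 and 88.3 against 42.5, 15.97 and 28.4 FPKM, and CXCL12, the most abundant, at 32.95, 458 and 337 against 248, 161 and 276 FPKM. Cytokines had 1 higher (LCN2) and 1 lower (PTGS2) of 25 with a median of 0.01, and 17 lower with a median of -0.47 without replicate 1. LIF, a cytokine of the interleukin 6 family, was at 4.69, 26.2 and 25.1 against 8.36, 7.27 and 6.18 FPKM and was 1 of the 3 genes that passed without that library (limma adjusted p = 0.0430). Complement genes had a median of 0.40, and of -0.51 without standard replicate 1. C3, the central complement component, was at 167, 5124 and 2307 against 2344, 1604 and 1909 FPKM. Summed macrophage markers were highest in standard replicate 2, as given above, and lowest in replicate 1. The median of the 14 tested markers was -0.15, and -1.32 without standard replicate 1. Their part in the chemokine and interferon values was not tested.

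Proliferation genes split the standard controls rather than the 2 sets. Of 33 mitosis genes 0 were without overlap (median -0.14), and 2 of 28 DNA replication genes were lower (median -0.25), PCNA, the polymerase clamp, at 84.3, 66.4 and 53.02 against 52.998, 39.99 and 49.9 FPKM, and GINS1 at 5.29, 3.34 and 2.77 against 2.39, 2.21 and 1.88 FPKM. TOP2A, a topoisomerase of dividing cells, was at 87.96, 14.7 and 12.1 FPKM in the standard and 18.9, 30.9 and 20.4 FPKM in the inverse controls. Without standard replicate 1, 27 of 33 mitosis genes were higher in the inverse controls (background 21.4%) and the median was 0.72, the opposite sign. Summed over the list, the mitosis genes took 934, 157 and 149 FPKM in the standard and 221, 314 and 239 FPKM in the inverse controls.

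**Figure D4:**
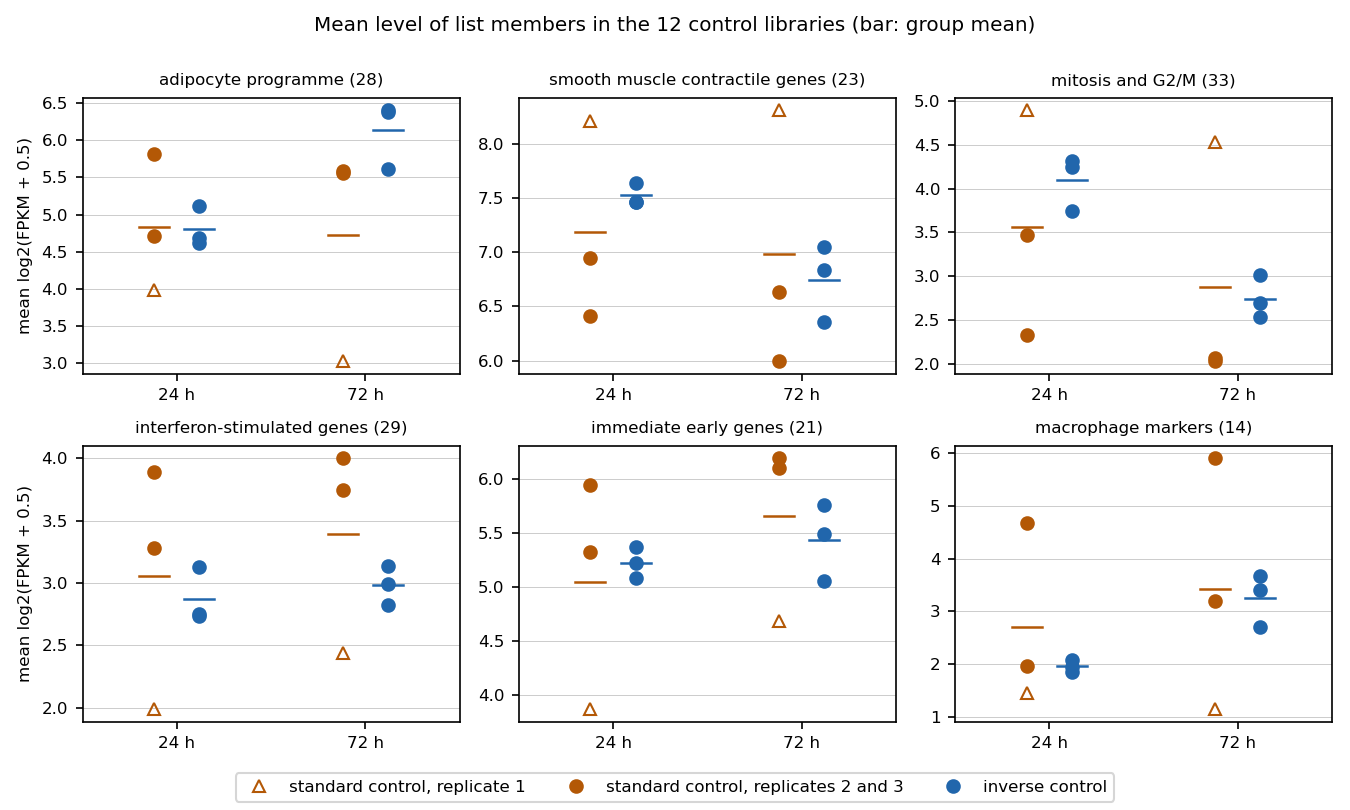
Mean log2(FPKM + 0.5) of the tested members of 6 gene lists in the 12 control libraries at 24 h and 72 h, 1 point per library and a bar at each group mean. Standard replicate 1 is the lowest or highest library of its group of every list at both times, and in the macrophage panel standard replicate 2 is highest.

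Metabolic and mitochondrial genes gave a few further differences. PFKFB3, which makes the allosteric activator of phosphofructokinase, was at 15.9, 16.9 and 15.9 against 31.3, 25.8 and 36.6 FPKM (log2 difference 0.91, SE 0.15, limma adjusted p = 0.717), without overlap and with a narrow spread. Of 33 glycolysis and hypoxia genes 2 were higher and 0 lower (median 0.10), a share under the 11.1% of all genes. Besides PFKFB3, the other higher gene was GAPDH, whose sequence is shared with many pseudogenes. Without standard replicate 1, 16 of the 33 were higher and 0 lower (median 0.25), beside 21.4% of all genes higher. At 24 h 6 were higher and 1 lower (median 0.31), beside 4.65% and 1.8% of all genes. PKM, the most abundant, was at 1404, 818 and 635 against 878, 927 and 761 FPKM at 72 h. Of 13 proteins encoded by mitochondrial DNA 4 were higher, beside 11.1% of all genes, and all 13 above zero (median 0.18, or 0.10 after scaling by gene ratios), with MT-ND3 of complex I at 16.6, 17.9 and 22.5 against 32.7, 33.01 and 39.1 FPKM and MT-CO1, the most abundant, at 2966, 2865 and 3266 against 3600.2, 3088 and 3606 FPKM. Nuclear-encoded respiratory chain genes had 1 higher and 1 lower of 62 (median -0.03). PLAGL1, an imprinted zinc finger factor, was at 8.54, 11.96 and 9.77 against 17.6, 19.7 and 21.6 FPKM. APCDD1, an inhibitor of Wnt signalling, was at 18.2, 26.96 and 28.2 against 52.7, 39.4 and 42.2 FPKM. The mesothelial list had a median of 0.18, and of -0.21 without standard replicate 1, with 2 of 3 tested members above zero and 1 below. Its only member without overlap was CLDN15, a claudin, at 2.86, 6.02 and 4.68 against 13.7, 10.9 and 11.8 FPKM. None of the genes named here passed an adjusted p of 0.05.

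With all 6 libraries the other lists held few genes without overlap, and their counts are to be read against the 11.1% higher and 3.14% lower among all genes. Counted as higher, lower and tested members, they numbered 1, 3 and 36 for the TGF-beta list, 2, 0 and 20 for the Wnt list, 2, 2 and 35 for growth factors and receptors, 2, 0 and 12 for imprinted genes, 1, 2 and 16 for ERK feedback genes and 2, 1 and 33 for the ATF4 response. The same 3 numbers were 1, 0 and 22 for NRF2 antioxidant genes, 2, 0 and 18 for iron handling, 1, 0 and 5 for MHC class II genes, 0, 1 and 20 for selenoproteins, 0, 1 and 4 for endothelial markers and 1, 0 and 3 for mesothelial markers. Members without overlap numbered 0 in the lists of IGF binding proteins, complement, cell cycle inhibitors and p53 targets, YAP targets, ER chaperones, metallothioneins, Schwann and glial markers and pericyte markers. Stellate cell and fibroblast markers had 0, 1 and 17. Some of these counts rested on standard replicate 1. Without it they were 0, 8 and 14 for complement, 3, 0 and 6 for pericyte markers and 2, 8 and 17 for stellate cell and fibroblast markers, beside 21.4% higher and 9.72% lower among all genes. SMAD7, the inhibitory SMAD of TGF-beta signalling, was at 102, 75.7 and 128 FPKM in the standard and 68.1, 69.2 and 70.8 FPKM in the inverse controls. DUSP4, a phosphatase that restrains ERK, was at 18.98, 14.1 and 15.1 against 26.97, 20.1 and 24.05 FPKM. IGFBP4, a secreted binding protein of insulin-like growth factors, was at 1233, 4244 and 3665 against 4268, 3559.7 and 3476 FPKM, with standard replicate 1 again apart.

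**Figure D5:**
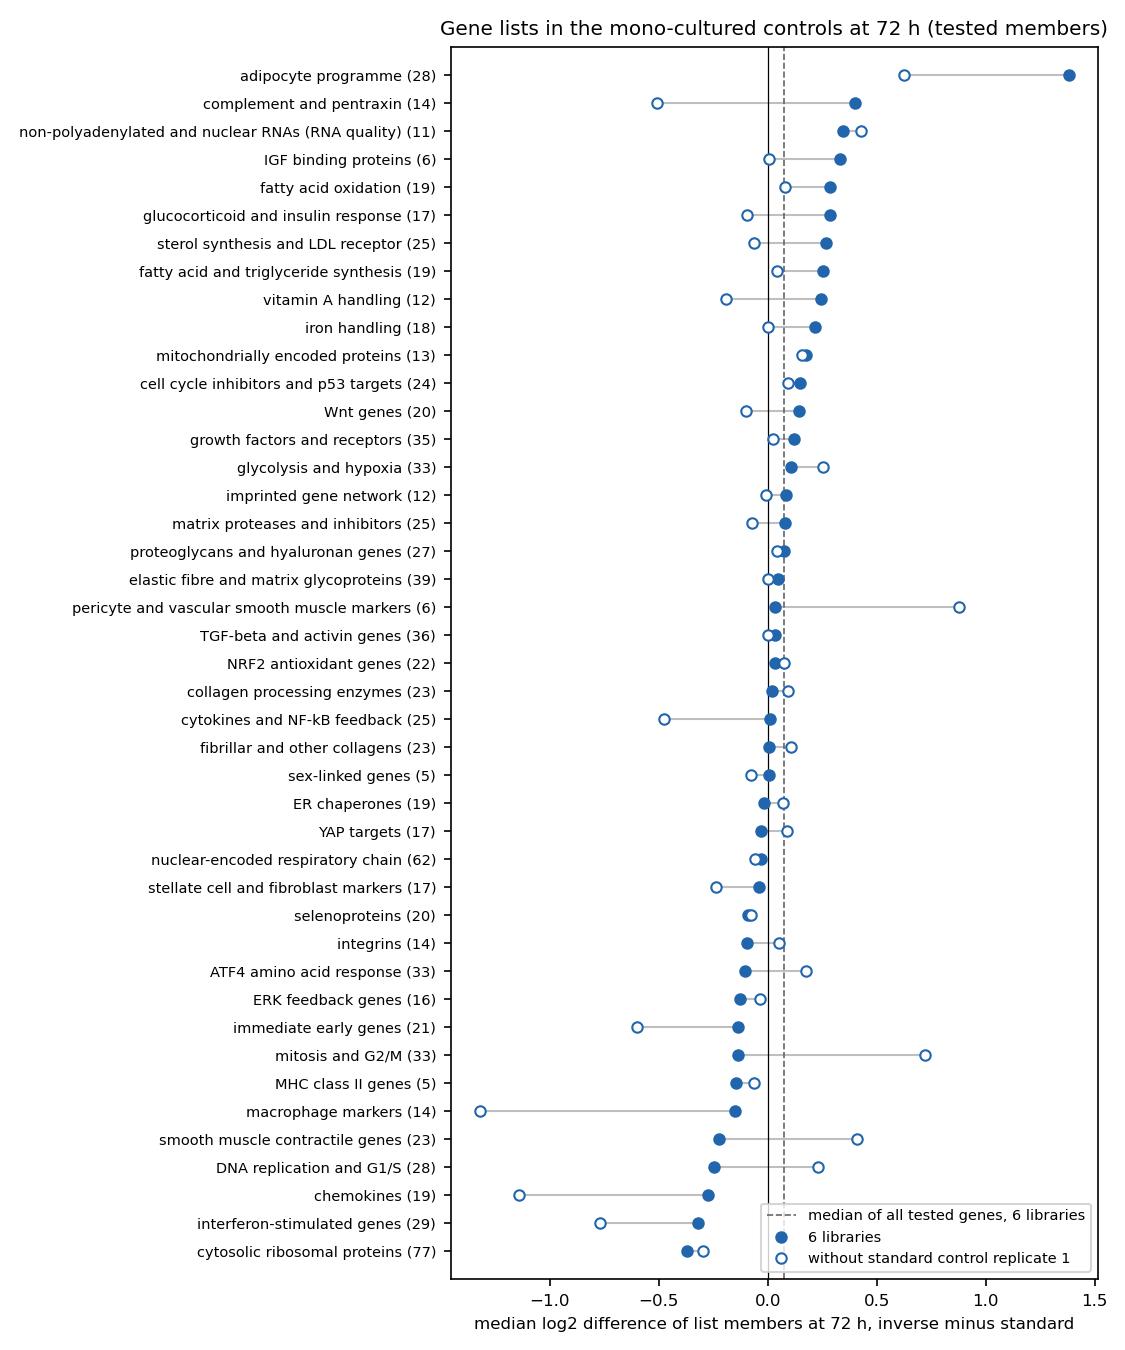
Median log2 difference at 72 h, inverse minus standard, of the tested members (number in brackets) of each gene list with at least 5 of them, with all 6 libraries (filled) and without standard control replicate 1 (open); the dashed line is the median of all genes. The adipocyte list lies at 1.38 and 0.62 and the ribosomal protein list at -0.37 and -0.30, while the mitosis and contractile lists change sign.

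The same comparison at 24 h and the change between the times complete the description. At 24 h 12903 genes were tested and 0 (0%) passed the adjusted p; 225 (1.74%) had an unadjusted p under 0.05, fewer than 5% of the genes tested. Genes without overlap numbered 600 higher (4.65%) and 232 lower (1.8%). Same-numbered standard controls deviated together at 24 h and 72 h (Pearson's r of 0.421 to 0.738 across genes), so 24 h is not counted as an independent repeat of 72 h. In the inverse controls the same r was -0.029, 0.0003 and 0.132, so this held for the standard set only. Without standard replicate 1 at 24 h, 58 genes passed and 2627 had an unadjusted p under 0.05, against 109 to 226 without another library. The low count of 225 therefore rested on that library. For the difference of the 2 differences, 0 of 13817 genes (0%) passed and 389 (2.82%) had an unadjusted p under 0.05. This fit treated the 12 libraries as independent, and the count depended on that. It was 1298 with the replicate number as a block and 1715 without standard 24 h replicate 1, where 691 would be 5% of the genes tested. Without any other single library it was 237 to 471. The 389 are therefore no measure of how alike the changes over time were. The 3 genes with the smallest p were PLAGL1, GM4332, a processed pseudogene, and LSM5, with limma adjusted p of 0.246, 0.251 and 0.507. PLAGL1 was at 8.39, 11.97 and 10.5 FPKM in the standard and 6.02, 4.69 and 5.54 FPKM in the inverse controls at 24 h, the reverse of the order at 72 h (8.54, 11.96 and 9.77 and 17.6, 19.7 and 21.6 FPKM). LSM5 also crossed over, from 0.572, 2.22 and 2.78 against 7.897, 8.397 and 6.53 FPKM at 24 h to 6.699, 9.46 and 3.79 against 2.06, 0.247 and 1.09 FPKM at 72 h. GM4332 was at 65.8, 62.2 and 57.2 against 69.3, 76.2 and 77.9 FPKM at 24 h and at 59.1, 58.1 and 50.8 against 33.2, 30.2 and 35.6 FPKM at 72 h. In the ribosomal protein list 35 of 77 genes had an unadjusted p under 0.05 for this difference (background 2.82%), with a median of -0.44, and in the adipocyte list 3 of 28 with a median of 1.60.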

How the data were processed

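RNA of mono-cultured mouse PSC was measured by poly(A) RNA sequencing. The authors aligned reads with HISAT2 2.0.5 to GRCm38, counted fragments with featureCounts 1.5.0-p3 at default settings and deposited FPKM per gene and library, without scaling between libraries. The counting as described did not use strand, so reads of overlapping antisense genes cannot be told apart. The 24 columns were assigned by their names, and 0 columns stayed unused.

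Of 53801 listed genes, those over an FPKM of 1 in 3 or more of the 6 libraries were tested with limma 3.58.1 (R 4.3.3) on log2(FPKM + 0.5), with an intensity trend and Benjamini-Hochberg adjustment at 0.05. Fold changes on this scale understate those of low genes. The 24 h comparison used the 6 controls of that time and the model-by-time difference all 12 controls. The procedure was tested on simulated data. Depth was recovered from the FPKM value of 1 fragment, with 61.8% to 65.8% of values under 50 fragments whole within 0.02. The 72 h libraries held 17585922 to 23874494 fragments.

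The named genes were the 10 with the largest change in each direction among genes with groups that did not overlap and a mean FPKM above 5 in at least 1 group, leaving out predicted genes (49 higher and 42 lower), the matrix genes of the study and ACTA2, the 2 most abundant genes of each list, and the 3 genes with the smallest p for the model-by-time difference. Other genes were named after their values were seen, and 1 tested adipocyte gene is not reported here by name or in the plot. The members and the 51 gene lists (1166 genes, of which 963 were tested) were chosen with earlier results of these data known. Gene models came from GENCODE M21 and sequences from RefSeq, both on GRCm38. Alternatives covered the pseudocount, filter, scaling, trend, libraries in the model, replicate block, voom weights and each library left out. Library weights and the repeats of the counts without overlap and of the list values without single libraries were added after seeing the data.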

Additional observations from a re-analysis of the deposited data

How the results depend on the processing

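For the 72 h comparison, 0 genes passed under other pseudocounts, filters, scalings, quantile normalization, voom weights, a limit of 0.01 or the 12 control libraries in the model. The count was 2 without the intensity trend (POLD4 and GM22933), 3 with 24 libraries in the model (GM49512, GM4332 and CLUH) and 1 with a weight per library (POLD4, with weights of 0.167 for standard control replicate 1 and 0.741 to 3.44 for the others). Leaving out 1 library gave 0 to 3 genes, with 3 only without standard replicate 1 (POLD4, LIF and CSRNP1), and 0 to 1 among list members. For the model-by-time difference the count was 1 with 24 libraries (GM4332) and 0 to 1 when 1 library was left out (GM22933, without inverse 24 h replicate 3). At 24 h it was 0 to 58, with 58 only without standard replicate 1. Genes without overlap numbered 1945 to 2803 higher and 603 to 1274 lower when 1 library was left out, where 2 values face 3, and 894 and 788 after scaling by gene ratios.

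Of 43 gene lists with at least 5 tested members, 16 had a median of the other sign without standard replicate 1, among them mitosis (0.72), DNA replication (0.23), complement (-0.51) and vitamin A handling (-0.19). Among the single genes and the medians recomputed under each alternative, the sign turned as follows. The log2 difference of CHST11 was -0.0163 under quantile normalization, -0.0185 without standard replicate 1, -0.00867 without inverse replicate 1 and -0.0237 with library weights, and at most 0.212 without 1 library. That of ACTA2 ran from -0.936 to 0.690 without 1 library, positive only without standard replicate 1, and was 0.228 with library weights. The contractile median ran from -0.692 without standard replicate 2 to 0.409 without standard replicate 1. The immediate early median ran from -0.598 without standard replicate 1 to 0.0119 and 0.0589 without standard replicates 2 and 3. The cause was not tested.

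Replicate numbers did not pair the control sets: deviations of same-numbered libraries correlated at -0.255, -0.301 and 0.031 at 72 h and at 0.057, -0.037 and 0.086 at 24 h. With the replicate number as a block, 0 genes passed at 72 h (383 with an unadjusted p under 0.05), 0 at 24 h (166) and 0 for the model-by-time difference (1298). The isolation behind each library is not given in the sources used here, and the medium and the RNA input go with the model.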
